A study of Mus musculus with 8 samples.

Results

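The comparison described here is the response of mouse 3134 cells to 4 h of dexamethasone in the arm whose arrays are titled as lacking tetracycline. It was formed from the sample titles: the 2 arrays titled for 4 h of dexamethasone without tetracycline were set against the 2 titled for the 0 h control without tetracycline, so 4 of the 8 arrays of the series are its members. The 3134 line is a mammary line of the mouse strain RIII, and every group carries stably introduced A-fos and the tetracycline regulator tTA. Cells in all groups were kept in charcoal-stripped serum for 48 h, and the 4 h groups then received 100 nM dexamethasone. The other 4 arrays cross the same times with titles that state tetracycline. No group was sampled at 4 h without dexamethasone, so the hormone and 4 h of elapsed time cannot be told apart.

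A-fos acts as a dominant negative that keeps AP-1, a dimer of Fos and Jun family members, off DNA. In a Tet-Off system tTA drives the transgene while tetracycline is absent. The titles and the tetracycline characteristic of these 4 arrays say that tetracycline was absent, whereas the treatment text of the same arrays says that it was present at 1 ug per ml. For the other 4 arrays the titles and the treatment text disagree as well. The labels therefore do not settle whether A-fos was on in either arm, and both arms are named by their titles throughout. Whether the line is a single clone is not stated in the sources used here. Nothing in the labels says that the 2 arrays of a group came from separate cultures, so a p-value here speaks of the spread among these arrays alone, and that spread may be technical.

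Dexamethasone is a synthetic glucocorticoid that binds the glucocorticoid receptor, a ligand-activated transcription factor held in the cytoplasm by chaperones such as the heat shock protein Hsp90. The hormone-bound receptor moves to the nucleus and binds palindromic DNA elements, where it activates genes that include metallothioneins, circadian, metabolic and anti-inflammatory regulators. It also lowers the expression of many inflammatory and AP-1-dependent genes. Mammary epithelium is a classical glucocorticoid target tissue.

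Expression is given as the log2 signal of 1 probe set per gene, for 19938 genes. Probe sets differ in efficiency, so a signal is compared between arrays for the same gene and not between genes. The median signal was 5.59 to 5.69 on the 8 arrays, and replicate arrays of this arm correlated at 0.9956 at 0 h and 0.9952 at 4 h across genes, which are not independent replicates. Marker genes had 0 h means of 3.37 to 5.96 for the 11 luminal, 4.62 to 6.57 for the 6 basal and 3.91 to 12.99 for the 8 fibroblast markers, and since these are signals of different probe sets, no cell type is read from them. Of 46 markers of luminal, basal, fibroblast, corticotroph, leukocyte, endothelial and adipocyte cells, 1 (Fabp4) was called. Of all genes 1.43% were called, so this count is near the general share and is no result about the markers. In bulk RNA, fewer cells of a type and less RNA per cell cannot be told apart, and these values carry no presence call.

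After 4 h of dexamethasone 205 genes were called higher and 80 lower than at 0 h, and the rises were the larger changes. A gene was called at a limma adjusted p under 0.05, which 1.43% of all genes passed, 1.03% higher and 0.401% lower. The median called rise was 0.93 on the log2 scale and the median called fall -0.70. Rises of at least 2-fold numbered 88 and falls of that size 10, while 18 genes rose at least 4-fold and 0 fell that far. All 285 called genes had 0 h and 4 h arrays that did not overlap, but so did 8080 of the 19938 genes tested. The median change of all genes was 0.01.

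The counts depended on every array of this arm. Without 0 h replicate 1, 113 genes were called higher and 21 lower, and without 0 h replicate 2 the counts were 118 and 22. Without 4 h replicate 1 they were 121 and 22, and without 4 h replicate 2 they were 116 and 22. In all 8 fits that each left out 1 array, 98 of the higher genes and 11 of the lower genes were called, and none of the 285 changed direction. A called gene named below passed in all 8 of these fits unless the text says which arrays it needed.

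**Figure D1:**
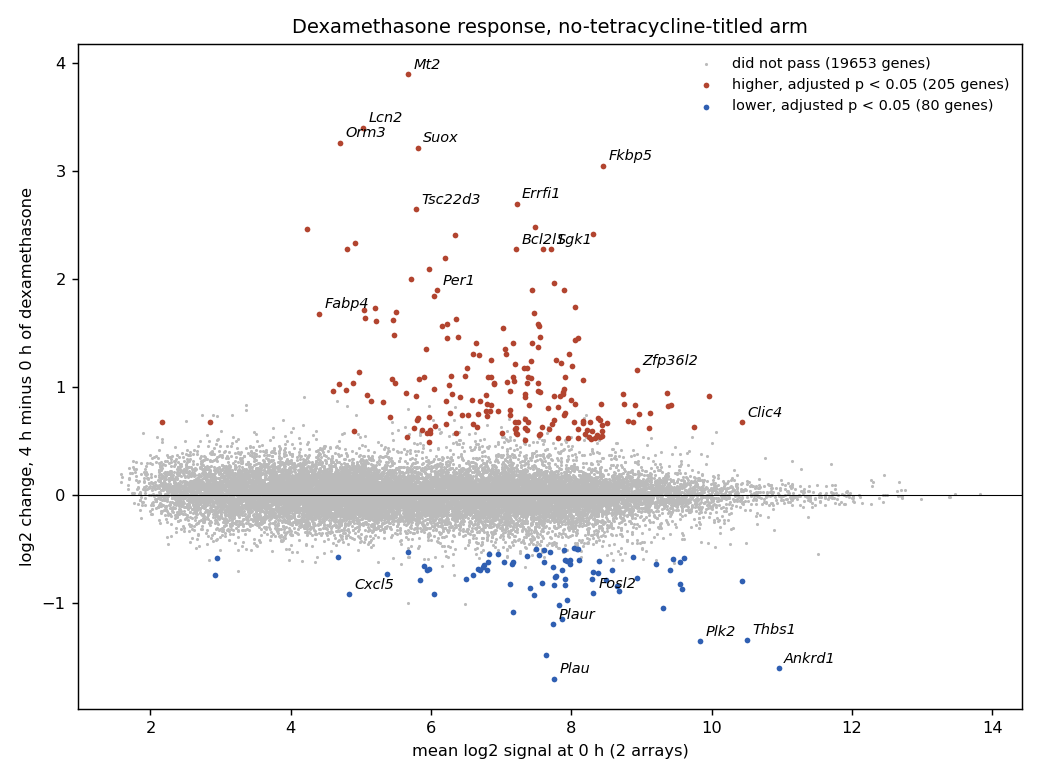
Each point is 1 of 19938 genes, with its mean log2 signal at 0 h on the x axis and its log2 change from 0 h to 4 h of dexamethasone on the y axis, for the no-tetracycline-titled arm (2 arrays per time). The 205 called rises (red) reach 3.89 for Mt2, and the 80 called falls (blue) reach -1.70 for Plau.

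Among the receptor, its chaperones and its coregulators, a list of 17 tested genes, 1 was called. Fkbp5 encodes a co-chaperone that lowers the receptor's affinity for hormone. It read 8.45 and 8.46 on the 0 h arrays and 11.50 and 11.51 on the 4 h arrays, a rise of 3.05 ± 0.12 (SE) or 8.27-fold (adjusted p = 6.16e-07). Its replicates were nearly equal and far apart between times. Nr3c1, the gene of the receptor, read 8.70 and 8.75 at 0 h against 8.31 and 8.38 at 4 h, or -0.38 ± 0.10, which the test did not call (adjusted p = 0.144). The other 15 members lay between -0.10 and 0.36, and the median of the list was 0.05.

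Of the brakes on inflammatory and cytokine signalling, 7 of 21 were called higher and 1 lower. This is 38.1% of the list, beside 1.43% of all genes. The gene lists were chosen with earlier results of these data known, so such a share is a description and does not rank the lists. Each list count below stands beside 1.03% of all genes called higher and 0.401% lower. The list's median change was 0.11, and 13 of the 21 members did not pass. Errfi1, an inhibitor of the epidermal growth factor (EGF) receptor, read 7.21 and 7.23 at 0 h and 9.89 and 9.94 at 4 h (6.47-fold, adjusted p = 3.22e-06). Tsc22d3, also known as GILZ, encodes an inhibitor of NF-κB and AP-1, and it went from 5.74 and 5.84 to 8.23 and 8.63 (6.24-fold, adjusted p = 1.85e-05). Dusp1 encodes a phosphatase that inactivates the MAP kinases p38 and JNK. Its 0 h arrays, 6.50 and 5.90, differed more from each other than its 4 h arrays, 8.44 and 8.34, and the rise was 2.19 ± 0.17 (adjusted p = 6.82e-05).

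The other called rises of this list were smaller, and the lowest change in it was -0.78. Sphk1, a kinase that makes sphingosine 1-phosphate, rose 2.99-fold (adjusted p = 7.98e-05). Nfkbia, which encodes the NF-κB inhibitor IκBα, and Zfp36, which encodes an RNA-binding protein that destabilises cytokine mRNAs, each rose by 1.35 ± 0.12 on the log2 scale (adjusted p = 0.000105 for both). Nfkbia read 6.97 and 7.14 at 0 h and 8.41 on both 4 h arrays. Zfp36l2, a relative of Zfp36, rose by 1.15 ± 0.12. Other textbook brakes did not pass: Tnfaip3 had a change of 0.48, Socs3 of -0.25 and Anxa1, a classical glucocorticoid-associated protein gene, of 0.02.

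The effectors of inflammation included no called rise and 4 called falls among 30 tested genes, 13.3% beside 0.401% of all genes called lower. The list median was -0.14. Ptgs2, which encodes the inducible cyclooxygenase, read 8.70 and 8.59 at 0 h and 7.83 and 7.77 at 4 h, a change of -0.84 ± 0.15 (adjusted p = 0.0153). Cxcl5, a neutrophil-attracting chemokine, changed by -0.92 ± 0.14 and Ccl2, a monocyte-attracting chemokine, by -0.74 ± 0.15. Irf1, an interferon-response transcription factor, changed by -0.63 ± 0.12. None of the 4 passed in every fit that left out 1 array, although their direction held: the change ran from -0.90 to -0.79 for Ptgs2, -0.69 to -0.56 for Irf1, -1.08 to -0.76 for Cxcl5 and -0.86 to -0.61 for Ccl2 over those fits. Ptgs2 and Irf1 did not pass without any 1 of the arm's 4 arrays (adjusted p up to 0.153 and 0.241), and Cxcl5 did not pass without 0 h replicate 2 or 4 h replicate 2 (up to 0.0935). Ccl2 failed without any of the arm's own arrays (up to 0.316) or without either 4 h array of the other arm (up to 0.0562), and its adjusted p was 0.0642 with the replicate number as a block. With the probe sets of a gene averaged, Irf1 had a change of -0.39 (adjusted p = 0.232). Il6 read near the bottom of the scale, with a 0 h mean of 2.11, and had a change of 0.14.

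**Figure D2:**
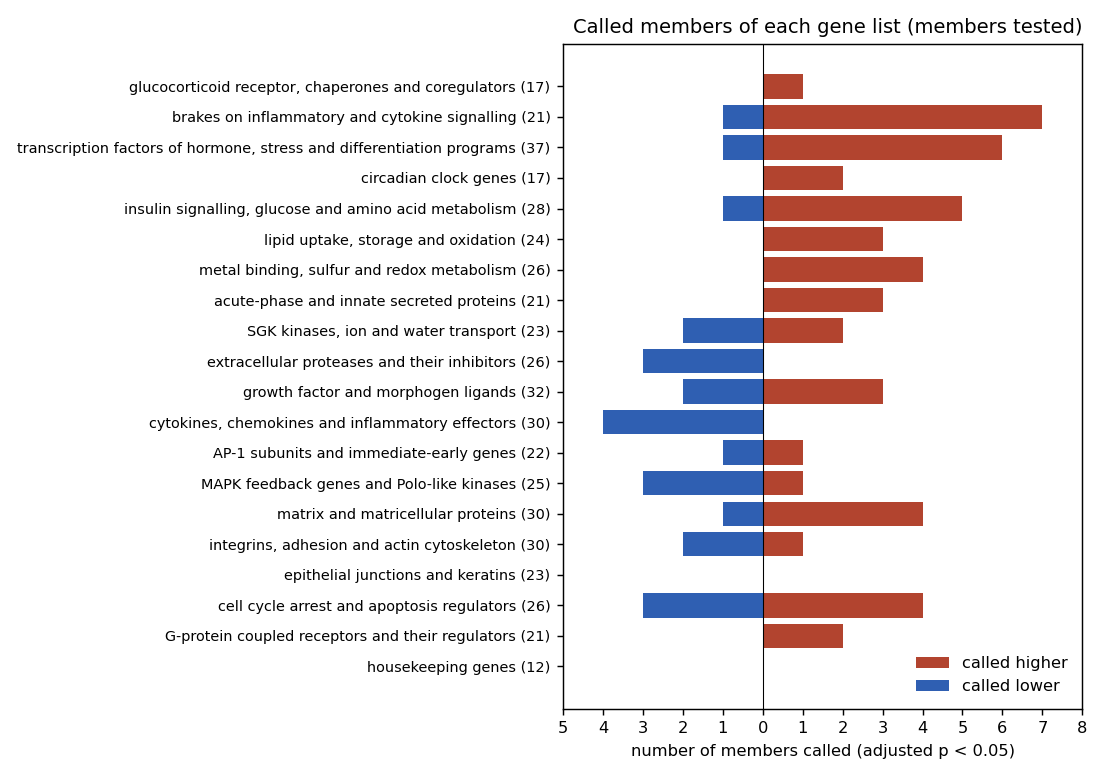
Bars count the called members of the 20 functional gene lists in the no-tetracycline-titled arm, to the right for higher and to the left for lower, with the number of members tested beside each name. The brakes on inflammatory signalling have 7 called rises and 1 called fall, while the cytokines and inflammatory effectors have 4 called falls and no rise. Of all genes 1.03% were called higher and 0.401% lower.

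Metal, sulfur and redox metabolism held the largest rise of all genes. Mt2, a metallothionein that binds zinc and copper, read 5.95 and 5.40 at 0 h and 9.55 and 9.59 at 4 h, a 14.9-fold rise (adjusted p = 5.78e-06). Mt1 read 8.18 and 8.43 at 0 h and 10.54 and 10.90 at 4 h (5.32-fold). These genes are near copies, so their probes may share signal. The tissue-restricted relatives Mt3 and Mt4 had changes of -0.11 and -0.08. Slc39a14, a zinc and iron importer, rose 2.09-fold (adjusted p = 0.000255). Suox encodes sulfite oxidase, the mitochondrial enzyme that completes the breakdown of sulfur amino acids. It read 5.83 and 5.80 at 0 h and 8.95 and 9.10 at 4 h, a rise of 3.21 ± 0.11 with the smallest adjusted p among the genes described here (2.95e-07). The 4 called members of this list all rose, and the median of its 26 members was 0.09.

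The acute-phase and innate secreted proteins showed large rises of few members, 3 of 21 (14.3%, beside 1.03% of all genes called higher). Lcn2 encodes lipocalin 2, a secreted protein that binds bacterial iron carriers. It read 5.07 and 5.00 at 0 h and 8.27 and 8.59 at 4 h (10.5-fold, adjusted p = 1.96e-06). Orm3 and Orm1 encode orosomucoids, plasma carrier proteins. Orm3 went from 4.73 and 4.69 to 7.98 and 7.95 (9.57-fold), and Orm1 from 3.94 and 4.51 to 6.74 and 6.63 (5.51-fold). Orm2, with 4.70 and 4.63 at 0 h and 5.53 on both 4 h arrays, did not pass (adjusted p = 0.0536), and cross-reading among the 3 close relatives cannot be told apart from expression here. The other 17 members, including the serum amyloid A genes, had changes from -0.28 to 0.30.

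In glucose, insulin and amino acid metabolism 5 of 28 genes rose and 1 fell. Glul, the glutamine synthetase gene, read 7.44 and 7.53 at 0 h and 9.88 and 10.05 at 4 h (5.57-fold, adjusted p = 4.05e-06). Pdk4, a kinase that shuts off pyruvate dehydrogenase, read 4.88 and 4.93 and then 7.20 and 7.28 (5.03-fold). Both are well-known hormone-responsive metabolic genes, and their 4 h arrays stood more than 2 log2 units above their 0 h arrays. Ddit4, an inhibitor of the growth kinase mTORC1, rose 3.34-fold, and Sesn1, an inhibitor of the same pathway, rose 2.65-fold. Txnip, an inhibitor of glucose uptake and of thioredoxin, rose by 0.78 ± 0.15 (adjusted p = 0.0297), but not without 0 h replicate 1 or 4 h replicate 2 (adjusted p up to 0.295), nor without either 0 h array of the other arm (up to 0.0609). Irs1, an adaptor of the insulin receptor, fell by 0.78 ± 0.11 (adjusted p = 0.00466), a call lost without 0 h replicate 1 or 4 h replicate 1 (up to 0.0635). The liver-type glucocorticoid targets Pck1, with a change of 0.00, and Tat, with -0.02, did not pass.

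Of 24 lipid genes 3 rose (12.5%, beside 1.03% of all genes called higher). Plin4, a coat protein of lipid droplets, read 6.27 and 6.42 at 0 h and 8.61 and 8.89 at 4 h (5.30-fold, adjusted p = 8.95e-05). Fabp4, a fatty acid binding protein, read 4.28 and 4.53 and then 6.08 on both 4 h arrays (3.20-fold). Fabp4 is also an adipocyte marker. The other 5 adipocyte markers, Adipoq, Lep, Cidec, Plin1 and Retn, had changes from -0.15 to 0.30 and none passed. Abhd2, a lipid hydrolase, rose 2.70-fold. The median of the lipid list was -0.03.

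The SGK kinases and ion and water transport genes moved both ways, 2 higher and 2 lower among 23. Sgk1, a kinase that sustains epithelial sodium transport, read 7.79 and 7.64 at 0 h and 10.07 and 9.90 at 4 h (4.83-fold, adjusted p = 4.05e-06). Its relatives Sgk2 and Sgk3 had changes of 0.03 and -0.26. Aqp5, a water channel, read 8.69 and 8.68 and then 7.82 and 7.76, a fall of 0.89 ± 0.14 on the log2 scale (adjusted p = 0.00749). Ndrg1, a substrate of SGK1, fell by 0.87 ± 0.14, and Clic4, an intracellular chloride channel protein, rose by 0.67 ± 0.10. Aqp5 and Clic4 did not pass without any 1 of the arm's 4 arrays (adjusted p up to 0.0784 and 0.111), and Ndrg1 did not without either 0 h array or 4 h replicate 1 (up to 0.106). The genes of the epithelial sodium channel, Scnn1a, Scnn1b and Scnn1g, lay between -0.12 and 0.16.

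Transcription factors of hormone, stress and differentiation programs had 6 rises and 1 fall among 37. Foxo3 and Foxo1, forkhead factors active when insulin signalling is low, rose by 1.09 ± 0.11 and 1.04 ± 0.13 (adjusted p = 0.000353 and 0.00201). Foxo3 read 7.37 and 7.38 at 0 h and 8.44 and 8.48 at 4 h. Tsc22d1, a leucine-zipper relative of Tsc22d3, rose 2.47-fold. Cebpb, a bZIP factor of differentiation and acute-phase genes, rose by 0.95 ± 0.13 (adjusted p = 0.00378), a call lost without 0 h replicate 1 (0.0574). Id1, an inhibitor of basic helix-loop-helix factors, rose by 1.17 ± 0.18, a call lost without 0 h replicate 2 or either 4 h array (adjusted p up to 0.069). Its relative Id3 rose by 0.54 ± 0.11, with the call lost without any of the arm's own arrays (up to 0.265) or either 4 h array of the other arm (up to 0.0603). Snai2, a repressor of epithelial genes, fell by 0.62 ± 0.13 (adjusted p = 0.0395), with the call lost without any of the arm's own arrays (up to 0.344), without either 4 h array of the other arm (up to 0.0655), and with the replicate block (0.0649). Klf9, a common glucocorticoid target, read 6.46 and 6.24 at 0 h and 7.26 and 7.06 at 4 h and did not pass (adjusted p = 0.085).

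Of the circadian clock genes 2 of 17 rose (11.8%, beside 1.03% of all genes called higher). Per1, a core clock repressor, read 6.15 and 6.03 at 0 h and 8.13 and 7.84 at 4 h (3.72-fold, adjusted p = 2.65e-05), and Nfil3, a repressor in the clock's output loop, rose 2.99-fold. Per2 had a change of 0.25 and Per3 of -0.26, and neither passed.

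**Figure D3:**
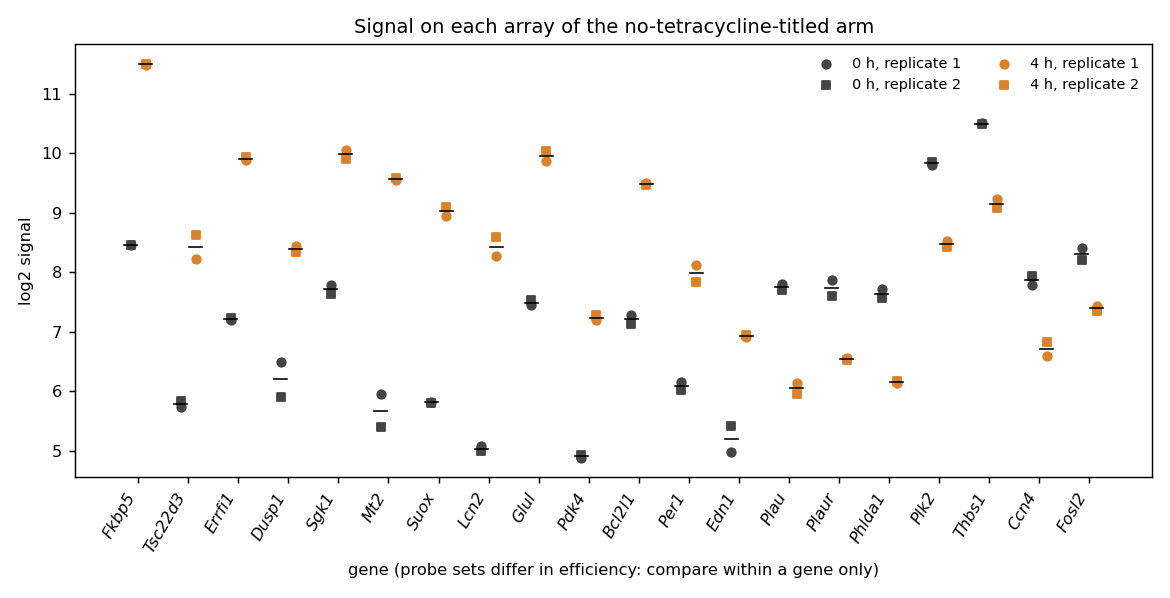
Log2 signal of 20 called genes on each of the 4 arrays of the no-tetracycline-titled arm, with 0 h in grey and 4 h in orange, circles for replicate 1 and squares for replicate 2, and a short line at each mean. Fkbp5 moves from 8.45 and 8.46 to 11.50 and 11.51 and Plau from 7.81 and 7.70 to 6.14 and 5.96. The times overlap in no gene shown, which holds for all 285 called genes and for 8080 of the 19938 genes tested.

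Of 26 extracellular protease and inhibitor genes 3 fell and none rose (11.5%, beside 0.401% of all genes called lower). Plau encodes urokinase, the protease that activates plasminogen at the cell surface. It read 7.81 and 7.70 at 0 h and 6.14 and 5.96 at 4 h, a 3.25-fold reduction (adjusted p = 5.92e-05), the largest called fall. Plaur, which encodes the urokinase receptor, read 7.88 and 7.60 and then 6.56 and 6.52, a 2.29-fold reduction (adjusted p = 0.000847). Adamts1, a secreted metalloprotease, fell by 0.62 ± 0.12 (adjusted p = 0.0322), a call lost without any 1 of the arm's 4 arrays (up to 0.25). The matrix metalloproteases Mmp3, Mmp9, Mmp10 and Mmp13 had changes of -0.22, -0.20, -0.08 and 0.17.

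Of the AP-1 subunits and immediate-early genes 1 of 22 rose and 1 fell. Fosl2, a Fos family member, read 8.41 and 8.21 at 0 h and 7.44 and 7.36 at 4 h, a fall of 0.91 ± 0.12 (adjusted p = 0.0019). Jun read 8.66 and 8.71 and then 8.16 and 8.11, a change of -0.55 that did not pass (adjusted p = 0.057). Fos read 4.96 and 5.10 and then 5.38 and 5.33 and did not pass either (adjusted p = 0.454). Rhob, a small GTPase gene with immediate-early behaviour, rose 3.88-fold (adjusted p = 0.000105).

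Among the feedback genes of MAP kinase signalling and the Polo-like kinases, 1 of 25 rose and 3 fell. Phlda1, a pleckstrin homology protein induced by growth factors, read 7.72 and 7.57 at 0 h and 6.14 and 6.18 at 4 h (2.80-fold reduction, adjusted p = 0.000115). Plk2, a stress-responsive Polo-like kinase, read 9.81 and 9.86 and then 8.52 and 8.43 (2.56-fold reduction, adjusted p = 0.000298). Dusp8 fell by 0.62 ± 0.10 and Dusp7 rose by 0.66 ± 0.13, and both calls were lost without any 1 of the arm's 4 arrays (adjusted p up to 0.119 and 0.301).

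Growth factor and morphogen ligands split into 3 rises and 2 falls among 32. Edn1, the precursor of the vasoconstrictor endothelin 1, read 4.98 and 5.42 at 0 h and 6.91 and 6.95 at 4 h (3.32-fold, adjusted p = 0.000103). Vegfd, a lymphatic growth factor, rose 2.64-fold. Adm, the precursor of adrenomedullin, rose by 0.94 ± 0.14 (adjusted p = 0.00603), a call lost without 0 h replicate 1 or 4 h replicate 2 (up to 0.0791). The falls were both ligands of EGF family receptors. Hbegf read 7.39 and 7.55 and then 6.44 and 6.63, a fall of 0.93 ± 0.13 that was lost without 0 h replicate 2 or 4 h replicate 1 (adjusted p up to 0.0613). Btc, betacellulin, fell by 0.66 ± 0.11, which was lost without 0 h replicate 2 or either 4 h array (up to 0.19).

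The EGF receptor system was collected as a set after its values were seen. Of its 12 tested genes 2 rose, Errfi1 and Cblb, which encodes a ubiquitin ligase that promotes receptor breakdown (2.14-fold, adjusted p = 0.000478). The 2 falls were Hbegf and Btc, with the array dependence given above. Ereg, another ligand gene, had a change of -0.66 that did not pass (adjusted p = 0.104), and the receptor gene Egfr had one of 0.08.

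Matrix and matricellular genes had 4 rises and 1 fall among 30. Thbs1, thrombospondin 1, read 10.51 and 10.49 at 0 h and 9.23 and 9.08 at 4 h (2.54-fold reduction, adjusted p = 0.000948). Postn, which encodes the matricellular protein periostin, read 5.29 and 5.15 and then 6.89 and 6.77 (3.05-fold), and Loxl3, a collagen cross-linking enzyme, rose 2.59-fold. Ccn2, a matricellular growth factor modulator, rose by 0.65 ± 0.11 (adjusted p = 0.0121), lost without 0 h replicate 1 or either 4 h array (up to 0.179). Col4a2, a basement membrane collagen, rose by 0.54 ± 0.11, lost without any of the arm's own arrays (up to 0.346) or either 4 h array of the other arm (up to 0.0656). The fibrillar collagen genes Col1a1, Col1a2 and Col3a1 lay between -0.15 and -0.06.

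Integrins, adhesion and actin genes had 1 rise and 2 falls among 30. Ankrd1, a muscle-type ankyrin repeat protein that responds to tension, read 11.03 and 10.88 at 0 h and 9.53 and 9.16 at 4 h, a change of -1.61 ± 0.28 (adjusted p = 0.0159). This call was lost without either 0 h array or 4 h replicate 2 (up to 0.149). Pcdh18, a protocadherin, fell by 0.97 ± 0.12 (adjusted p = 0.00164). Enah, an actin polymerisation factor, rose by 0.53 ± 0.11, lost without any of the arm's own arrays (up to 0.31), either 4 h array of the other arm (up to 0.0677) and with the replicate block (0.0527). None of the 23 genes of the junction and keratin list passed, which is near the 1.43% called over all genes. Their changes lay between -0.17 and 0.23. That list also holds Vim, the gene of the mesenchymal filament protein vimentin, with a change of -0.04.

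Regulators of the cell cycle and of apoptosis had 4 rises and 3 falls among 26. Bcl2l1, which encodes the survival protein Bcl-xL, read 7.29 and 7.13 at 0 h and 9.50 and 9.46 at 4 h (4.83-fold, adjusted p = 3.22e-06). Mxd4, a Myc antagonist, rose 2.31-fold, and Gadd45g, a stress and growth arrest gene, rose 2.13-fold. Gadd45b rose by 0.67 ± 0.11 and Gadd45a fell by 0.83 ± 0.14, and both calls were lost without any 1 of the arm's 4 arrays (adjusted p up to 0.0927 and 0.164). Ddit3, the stress factor CHOP, fell by 0.69 ± 0.12 with the same dependence (up to 0.141). Btg1, an antiproliferative gene, fell by 0.79 ± 0.16, lost without any of the arm's own arrays (up to 0.289) or either 0 h array of the other arm (up to 0.0609). The cyclin and cyclin-dependent kinase inhibitor genes Ccnd1, Cdkn1b and Cdkn1c had changes of 0.24, -0.16 and 0.01.

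G-protein coupled receptors and their regulators had 2 rises among 21 (9.52%, beside 1.03% of all genes called higher). Rgs2, which shortens Gq signalling, read 4.77 and 4.83 at 0 h and 6.88 and 7.27 at 4 h (4.85-fold, adjusted p = 9.87e-05). Gprc5a, an orphan receptor, rose by 0.91 ± 0.11. The 12 housekeeping genes had no call, which is near the 1.43% called over all genes, and their changes ran from -0.08 to 0.21.

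Several gene families did not move as a unit. These families were chosen after their values were seen, so the pattern is a description. In the TSC22 family Tsc22d3 and Tsc22d1 rose while Tsc22d2 fell by 0.65 ± 0.12 (adjusted p = 0.0199), a call lost without 0 h replicate 1 or either 4 h array (up to 0.25). Zfp36 and Zfp36l2 rose while Zfp36l1 fell by 0.78 ± 0.16 (adjusted p = 0.0418), a call lost without any of the arm's own arrays (up to 0.318) or either 0 h array of the other arm (up to 0.0853). In the CCN family Ccn2 rose and Ccn4, a matricellular target of Wnt signalling, fell from 7.78 and 7.95 to 6.60 and 6.84 (2.21-fold reduction, adjusted p = 0.000665). Of the 4 TEAD factors, the DNA-binding partners of YAP, Tead4 rose by 1.09 ± 0.12 and Tead3 by 0.57 ± 0.11, the latter call lost without any 1 of the arm's 4 arrays (up to 0.246). The remaining falls among the 20 largest with support in every fit were Kif21b, a kinesin (2.12-fold reduction), and Rab7b, a vesicle GTPase (1.89-fold reduction).

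**Figure D4:**
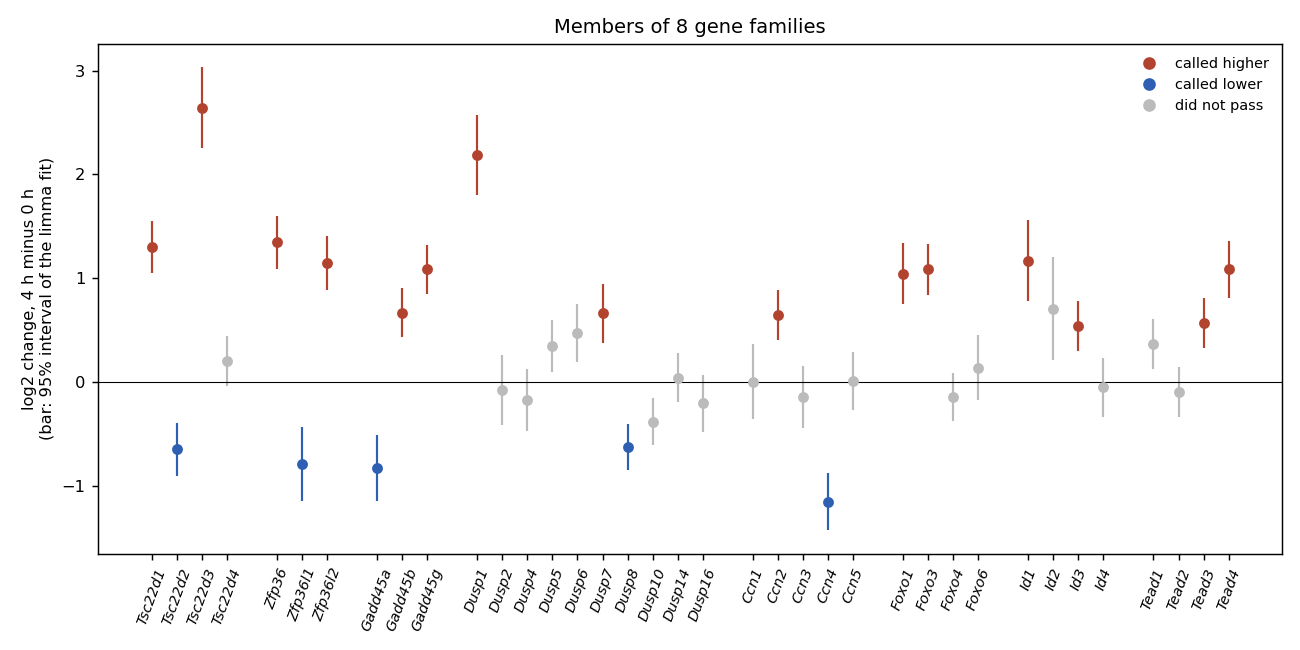
Log2 change from 0 h to 4 h of dexamethasone in the no-tetracycline-titled arm for the tested members of 8 gene families, with bars for the 95% interval of the limma fit, red for called higher, blue for called lower and grey for not passing. Members of the TSC22, ZFP36, GADD45, DUSP and CCN families lie on both sides of 0, for example Tsc22d3 at 2.64 and Tsc22d2 at -0.65.

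To set the arms side by side, the change of one was subtracted from that of the other, and the arms share no arrays. At an adjusted p under 0.05 the difference was called for 1 gene, 0.00502% of those tested, and 1018 genes had an unadjusted p under 0.05. That gene was Suox. In the plus-titled arm it had a mean of 6.03 at 0 h and read 7.51 and 7.60 at 4 h, so its rise was 1.53 there against 3.21 in the no-titled arm. The difference, plus-titled minus no-titled, was -1.69 ± 0.15 (95% interval -2.03 to -1.35, adjusted p = 0.00779). The call held without 4 h replicate 1 of the no-titled arm (adjusted p = 0.0319) or 4 h replicate 2 of the plus-titled arm (0.0252) and was lost without each of the other 6 arrays, with adjusted p-values of 0.0526 to 0.0843.

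The other 9 of the 10 called genes with the smallest p for this difference did not pass. Orm3 had a change of 3.26 here and of 1.79 with tetracycline in the title (difference -1.46 ± 0.22, adjusted p = 0.129). Sgk1 ran the other way, with 2.27 against 3.38 (difference 1.11 ± 0.17, adjusted p = 0.129). Its plus-titled arrays read 6.63 and 6.75 at 0 h, below the 7.79 and 7.64 of the no-titled arm, while the 4 h arrays of the arms overlapped. Fosl2 fell in the no-titled arm and had a change of -0.02 in the other (difference 0.89 ± 0.16, adjusted p = 0.271). Mt2 and Fkbp5 had differences near 0 for their size, 0.09 (95% interval -0.61 to 0.78) and 0.27 (-0.10 to 0.64). Of the 205 called rises 175 were smaller in the plus-titled arm, and of the 80 called falls 69 were smaller there. Since these genes were called on the no-titled arrays, a smaller value in arrays that did not choose them is built into those counts.

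**Figure D5:**
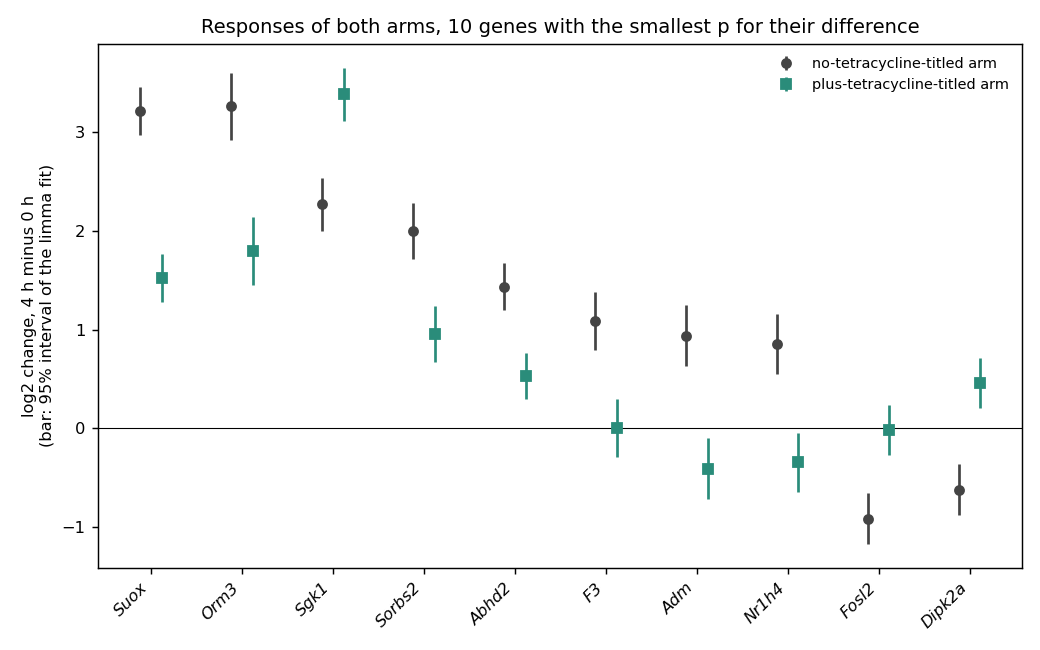
Log2 change from 0 h to 4 h of dexamethasone in the no-tetracycline-titled arm (grey circles) and the plus-tetracycline-titled arm (green squares) for the 10 called genes with the smallest p for the difference, with bars for the 95% interval of the limma fit. Suox, at 3.21 against 1.53, is the one gene whose difference passed.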

How the data were processed

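Gene expression was measured on 8 Affymetrix oligonucleotide arrays, 2 in each of 4 groups. The deposited table holds log2 values made by the authors for 28888 probe sets. The software was Affymetrix Expression Console with the RMA method, per the submitters' processing notes. RMA corrects background, makes the arrays' distributions alike and summarises probes, and its version is not given in the sources used here. This hides any shift common to most genes and compresses the folds of dim ones.

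Probe sets were named through the platform annotation: 21789 had 1 gene symbol, 1621 several and 5478 none in the table used. Each gene was represented by its brightest probe set on average over all arrays, giving 19938 genes, of which 999 were measured by several. Dim genes were kept, and 0 sample columns were left unused. The number of arrays limits the precision.

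The tests used lmFit and eBayes of limma 3.58.1 (R 4.3.3). One model estimated the 4 group means from the 8 arrays, tests were 2-sided, and Benjamini-Hochberg adjustment covered the 19938 genes. Residual degrees of freedom were 4, with 6.64 more from the prior. The members, gene lists and families were chosen with earlier results of these data known, so lists are described by counts and medians with no test. A naming rule took the 20 largest called changes in each direction. From each list it took up to 6 called members, or up to 2 with the smallest p where none was called. It also took Nr3c1, Fos and Jun, and the called genes with the highest and lowest signal and the smallest changes. The 5 largest changes not called and the 10 called genes with the smallest p for the difference between arms were added. Only some of these genes are described, a choice made with their values known. Families, the EGF receptor set and other genes outside that rule were named after their values were seen. Promoter sequence was not used here.

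The test was also run on simulated data for this arm's response over 19938 genes. It called 35.8% of the genes given a 1.5-fold change, 91% at 2-fold and 100% at 4-fold, and it made 5 false calls. The simulated noise was normal and independent between genes and arrays, with its spread drawn from the fitted prior. These figures therefore hold under the test's own assumptions and are not error rates of the real arrays. The alternatives changed the variance model, left out the dimmest genes, rescaled by median centring or by cyclic loess, treated probe sets by 2 other rules, added the replicate number as a block, kept only this arm's arrays, required a 2-fold change, or dropped a single array. Same-numbered arrays of this arm's groups deviated together with a correlation of 0.0944, and the numbers were not treated as pairs.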

Additional observations from a re-analysis of the deposited data

Results flagged for a closer look

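The difference between the arms' responses of Suox, the sulfite oxidase gene, was singled out because the test of the difference itself passed. It was -1.69 on the log2 scale, plus-titled minus no-titled, and every alternative variance model and scaling kept the call, with adjusted p-values of 0.000443 with a trend and robust variance, 0.00372 with median centring, 0.011 with cyclic loess and 0.0297 with the replicate block. Leaving out single arrays gave 0.0252 to 0.0843.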

How the results depend on the processing

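The counts of genes called higher, lower and for the difference of responses were 205, 80 and 1. A trend and robust variance gave 164 lower and 11 differences, median centring gave 2 differences, only this arm's 4 arrays gave 52 lower, and a 2-fold minimum gave 88 higher and 10 lower. Leaving out 1 array gave 113 to 211 higher, 21 to 80 lower and 0 to 2 differences. The lowest counts of higher and lower genes came without an array of this arm, while 0 differences occurred without arrays of either arm. With the replicate number as a block the counts were 205, 71 and 1. The labels give numbers 1 and 2 in each group but do not say that they mark a shared culture or day, and deviations of same-numbered arrays correlated at -0.0191 to 0.1335 between groups, so the block is an alternative and not the design. The median change of all genes stayed within 0.01 of zero under median centring and cyclic loess. Both bring the arrays to a common level, as RMA does, so this value is no check on the processing. The naming rule took 120 genes, and not all of them are described in the text. Of its 96 called genes, 20 lost the call in an alternative other than leaving out an array or the 2-fold minimum. Of the 120, 0 reversed. Genes described outside the rule are not in these counts. With only this arm's arrays 18 named genes lost the call (adjusted p up to 0.141). Among them were Btc, Ccl2, Col4a2, Dusp7, Enah, Snai2 and Txnip (up to 0.102). Cyclic loess cost 3 named genes the call, including Ccl2 (0.0634). Median centring cost 6, including Snai2 and Enah (0.0525 and 0.0624). Of the 1994 genes dimmest at 0 h in the other arm, 1 was called higher and 2 lower, with a median SE of 0.14, and the cause was not tested. The smallest called change was 0.49.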

Other observations

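Of the 285 called genes, 212 were on none of the gene lists. The 3 with the largest rise among them were Ampd3, an AMP deaminase (4.84-fold, adjusted p = 5.78e-06), Tcim (4.25-fold) and Sorbs2, an actin-linked adaptor (4.00-fold). Ampd3 read 7.75 and 7.43 at 0 h and 9.93 and 9.81 at 4 h. The genes that follow were chosen after their values were seen. Aldh1a1, a retinaldehyde dehydrogenase, read 7.38 and 7.49 at 0 h and 9.29 and 9.39 at 4 h (3.73-fold, adjusted p = 1.56e-05). Its near copy Aldh1a7 rose 3.26-fold, and the probes of the pair may share signal. Tgm2, a protein cross-linking transglutaminase, read 7.90 and 7.88 and then 9.79 and 9.78 (3.72-fold). Vdr, the vitamin D receptor, rose 2.75-fold (adjusted p = 5.54e-05). Slc25a33, a mitochondrial pyrimidine nucleotide carrier, rose 3.58-fold, and Ercc1, a DNA repair endonuclease subunit, rose 2.74-fold. Il6ra, the interleukin 6 receptor alpha chain, rose 2.02-fold.

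Sulfite oxidase needs the molybdenum cofactor. Of 8 genes of that cofactor and its enzymes, collected after their values were seen, Suox and Mocs1, which acts in the first step of cofactor synthesis, rose. Mocs1 read 6.23 and 6.38 at 0 h and 7.24 and 7.23 at 4 h (1.91-fold, adjusted p = 0.00119). The later-step genes Mocs2, Mocs3 and Gphn had changes of 0.15, 0.15 and -0.10, the molybdenum enzyme genes Xdh and Aox1 of 0.23 and 0.03, and Mocos, which activates those enzymes, of -0.06, and none of these 6 passed.

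The largest changes that did not pass were those of Usp17ld, with -1.02 ± 0.53, and Sh2d1b1, with -1.01 ± 0.23 (adjusted p = 0.643 and 0.0652). Usp17ld read 6.93 and 6.04 on the 0 h arrays, a spread nearly as large as the change. Among the dimmest called genes, Cyp2a22 read 2.13 and 2.20 at 0 h and 2.78 and 2.91 at 4 h (adjusted p = 0.0499), and its call was lost without any 1 of the arm's 4 arrays (up to 0.321), with cyclic loess (0.0543), with the replicate block (0.0866), and with the probe sets averaged (0.0504) or tested singly (0.057).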
